A study of Mus musculus with 6 samples.

Results

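The mitochondrial genome of the mouse carries its own small set of genes, and their RNA was followed here in the visceral (epididymal) fat of normal diet (ND)-fed and high-fat diet (HFD)-fed mice. The genes were chosen by name alone, as the rows of the count table whose Ensembl identifier has a symbol starting with mt- in GENCODE release M21. These were 37 of the 54532 genes counted, made up of 13 protein-coding genes, 2 rRNA genes and 22 tRNA genes. RNA-Seq was run on 3 ND and 3 HFD samples of whole epididymal fat, with no drug given. The animals were male C57BL/6J mice kept on their diet for 16 weeks from the age of 4 weeks, with 4.5% fat in the ND and 60% fat in the HFD (D12492). No transgene or deletion is named for either group. Whether a sample was 1 mouse or a pool of mice, and the age of the ND-fed mice when the fat was taken, were not given in the sources used here.

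Mitochondrial DNA is a small circle that is transcribed from both strands into long precursors covering many genes. The tRNAs that lie between most of the genes are cut out of the precursors, and this releases the mRNAs and rRNAs. The 13 proteins are core subunits of respiratory complexes I, III and IV and of the ATP synthase (complex V), whose other subunits, and all of complex II, come from nuclear genes. White adipocytes hold fewer mitochondria than brown ones, and use them to support lipid storage and fatty acid synthesis as well as respiration.

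Stretches of mitochondrial DNA have also been copied into the nuclear genome over time, and such a copy is counted as a gene of its own. Sequences are shown here for a pair of genes with such copies because they show how little there is to tell a gene from its copy. They were read from the GENCODE M21 transcripts of build GRCm38, 5′ to 3′ on the strand of each gene, and start at base 1 of the gene. Capitals in the copies, and in mt-Nd3, mark a base that differs within the pair. mt-Co2 lies at chrM:7013-7696, its copy Gm28661 at chr1:24614885-24615565 and its copy Gm13341 at chr2:22587291-22587962.
mt-Co2: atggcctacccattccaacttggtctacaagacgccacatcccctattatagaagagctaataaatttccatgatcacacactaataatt
Gm28661: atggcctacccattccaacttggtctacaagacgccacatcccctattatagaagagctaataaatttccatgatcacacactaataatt
Gm13341: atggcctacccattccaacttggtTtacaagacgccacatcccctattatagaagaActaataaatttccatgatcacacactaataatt
mt-Nd3: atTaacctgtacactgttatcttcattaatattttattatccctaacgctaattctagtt
Gm28438: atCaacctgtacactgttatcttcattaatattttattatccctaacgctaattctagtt
With positions counted from 1 at the first base and the mitochondrial base given first, Gm28661 had 0 differences from mt-Co2 over these 90 bases, and Gm13341 had C25T and G57A. T3C was the single difference between mt-Nd3 (chrM:9459-9806) and Gm28438 (chr1:24612775-24613119) over the 345 bases compared.

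The following tRNA genes were, among those with enough counts to be tested, the 2 with the highest positive log2 fold changes, for tyrosine and glutamate, and the one that passed edgeR's test, for proline. All 3 are on the minus strand, at chrM:5260-5326, chrM:14071-14139 and chrM:15356-15422. The capitals mark the anticodon, which pairs with the codon of the mRNA.
mt-Ty: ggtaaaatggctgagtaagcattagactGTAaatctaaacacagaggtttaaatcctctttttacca
mt-Te: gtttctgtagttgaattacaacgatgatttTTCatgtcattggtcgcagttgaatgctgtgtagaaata
mt-Tp: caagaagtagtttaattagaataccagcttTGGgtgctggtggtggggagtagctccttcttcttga

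The libraries held from 16996896 to 18859320 counts each. The diets were compared with edgeR's quasi-likelihood test on 15751 genes with enough counts, and a gene was called when its Benjamini-Hochberg adjusted p was under 0.05. The calls were 951 genes lower and 1552 higher on HFD, and the median log2 fold change over all genes tested was 0.01. Levels are given as CPM, the count as a rate of the library size scaled with the TMM method, or, between genes, as the deposited FPKM, which also divides by gene length. The third ND library had more RNA of epithelial and cilium markers than the rest, 315 CPM summed over 12 genes against 21.7 to 27.5 in the other 5 libraries.

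The mitochondrial genome supplied about 1.9 percentage points less of the RNA counted in HFD-fed than in ND-fed fat. Its genes took 3.92%, 4.39% and 3.93% of all counts in ND-fed mice, and 2.004%, 2.66% and 1.81% in HFD-fed mice, 4.08% ± 0.269 and 2.16% ± 0.444 (mean ± SD, n = 3 each). Every HFD library was below every ND library. The two-sided exact permutation test gave p = 0.1, the smallest that 3 samples against 3 allow, and 0.117 after Benjamini-Hochberg adjustment over the 7 shares computed (gene classes and denominators). The groups were also apart when counts were set against nuclear protein-coding counts only (4.32% ± 0.294 on ND and 2.24% ± 0.471 on HFD) and, for the 13 protein-coding genes, as a share of summed FPKM (9.16% ± 0.574 and 5.06% ± 0.992, exact permutation p = 0.1 for each, n = 3). In bulk tissue, fewer cells of a type and less RNA per cell cannot be told apart.

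The lower share lay in the mRNAs. The protein-coding genes took 4.02% ± 0.278 of counts in ND-fed and 2.09% ± 0.432 on HFD (n = 3 each, exact permutation p = 0.1), with no overlap. The rRNA genes did not go that way, since they took 0.0502% ± 0.00948 on ND and 0.0595% ± 0.00973 on HFD, and the diets overlapped (exact permutation p = 0.4, n = 3). The tRNA genes took 0.0153% ± 0.00150 and 0.00980% ± 0.00244, with no overlap (exact permutation p = 0.1, n = 3). Most tRNA counts were those of mt-Tp, at 82.6% to 85.7% of them in ND-fed and 64.0% to 70.3% in HFD-fed mice. The other 21 tRNA genes together had 408, 375 and 543 counts in ND-fed and 471, 768 and 416 in HFD-fed mice, and these groups overlapped, with the higher mean on HFD.

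**Figure D1:**
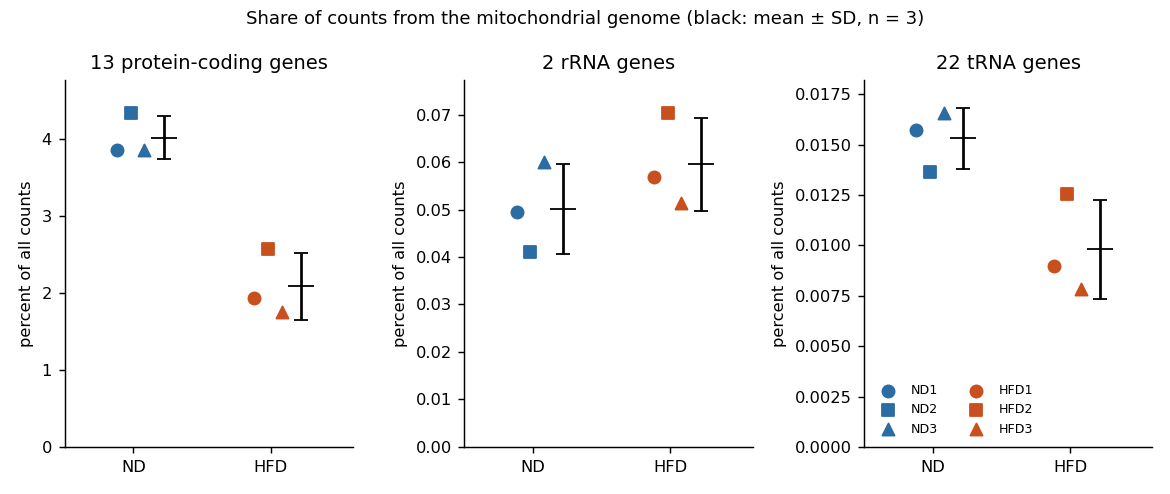
Percent of all counts taken by the 13 protein-coding, 2 rRNA and 22 tRNA genes of the mitochondrial genome, with a symbol for each library and the mean ± SD of 3 libraries in black; each y axis starts at 0. The protein-coding share of each HFD library (1.75% to 2.57%) is under that of each ND library (3.85% to 4.34%), while the rRNA shares overlap.

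Of the 37 genes, 22 had enough counts to be tested, and 8 of these were lower and 0 higher on HFD by edgeR (16 at an unadjusted p under 0.05, of which 1 rRNA and 1 tRNA gene had a positive fold change). Over all genes tested, 6.04% were called lower and 9.85% higher. DESeq2's Wald test called 14 of the 37 lower and 1 higher, against 8.42% and 10.7% of the genes to which it gave an adjusted p. All 13 protein-coding genes were tested, 7 were lower, and 13 of 13 had HFD values under all ND values, which was so for 19.1% of all genes tested. Their log2 fold changes ran from -1.44 to -0.56 with a median of -1.09, whereas the fold change was negative in 7789 of the 15751 genes. mt-Atp8 had enough counts only in the ND libraries, so its inclusion itself favoured a lower HFD value.

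The calls depended on single libraries. The count of genes lower on HFD was 3 without the first ND library, 3 without the second and 4 without the third, where 0.956%, 1.32% and 2.46% of all genes were called lower. It was 2 without the first HFD library, 13 without the second and 6 without the third, where 0.58%, 9.65% and 4.56% of all genes were called lower. Without the third HFD library mt-Ty was also called higher, as were 8.33% of all genes. mt-Atp6 and mt-Co3 were called in 6 of these 6 fits, mt-Co2 in 5, mt-Tp in 3, mt-Nd4 and mt-Nd6 in 2, and mt-Nd5 and mt-Cytb in 1, the fit without the second HFD library.

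Complex I oxidises NADH and passes its electrons to ubiquinone, and 7 of its membrane subunits are mitochondrial. mt-Nd4, mt-Nd5 and mt-Nd6 were lower on HFD. mt-Nd4 had 3595, 4433 and 3713 CPM in ND-fed and 1691, 2397 and 1538 CPM in HFD-fed mice. The mean ND level was 2.09 times the mean HFD level, with no overlap, and the log2 fold change was -1.06 ± 0.25 (SE, edgeR's adjusted p = 0.0312). mt-Nd5 had 3848, 4181 and 3411 CPM in ND-fed and 1533, 2469 and 1375 CPM in HFD-fed mice, a log2 fold change of -1.09 ± 0.28 (edgeR's adjusted p = 0.0403). The second HFD library was the highest of its group in both genes, but stayed under all ND libraries.

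mt-Nd6 is the only mRNA on the minus strand. It had 1084, 1165 and 1155 CPM in ND-fed and 471, 704 and 449 CPM in HFD-fed mice, a log2 fold change of -1.07 ± 0.22 (edgeR's adjusted p = 0.0216). The ND libraries were within 81.1 CPM of each other. Its annotated sequence overlaps mt-Nd5 on the other strand by 14 bases, and strand use in the counting was not given in the sources used here, so its reads and those of the precursor from the other strand cannot be told apart.

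mt-Nd1 and mt-Nd2, which stand first among the mRNAs after the rRNA genes, did not pass edgeR's test but passed DESeq2's. mt-Nd1 had 4253, 5226 and 4146 CPM in ND-fed and 2439.9, 2997 and 2409.5 CPM in HFD-fed mice, a log2 fold change of -0.80 ± 0.23 (adjusted p = 0.0528 by edgeR and 8.3e-05 by DESeq2). mt-Nd2 had 2985, 3751 and 2800.2 CPM in ND-fed and 2029.8, 2649.8 and 1785 CPM in HFD-fed mice, -0.56 ± 0.24 on the log2 scale (adjusted p = 0.153 by edgeR and 0.0403 by DESeq2). No HFD library reached the lowest ND library in either gene, but the second HFD library came within 150.4 CPM of it for mt-Nd2. mt-Nd3 (-0.74 ± 0.21, adjusted p = 0.0509 by edgeR and 0.0203 by DESeq2) and mt-Nd4l (-1.10 ± 0.32, 0.0550 and 0.0144) did likewise, at 7.24 to 17.1 and 1.96 to 7.54 CPM over all libraries.

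Complex III passes electrons from ubiquinol to cytochrome c, and mt-Cytb encodes cytochrome b, its only mitochondrial subunit. mt-Cytb had 7235, 9127 and 7081 CPM in ND-fed and 3061, 4729 and 3011 CPM in HFD-fed mice. All HFD libraries were well under the lowest ND library, with a log2 fold change of -1.12 ± 0.28 (edgeR's adjusted p = 0.0383).

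Complex IV, cytochrome c oxidase, hands the electrons to oxygen, and mt-Co1, mt-Co2 and mt-Co3 encode its core. mt-Co3 had the most negative fold change of the 37 genes. It had 36.6, 32.2 and 25.6 CPM in ND-fed and 9.65, 12.4 and 12.7 CPM in HFD-fed mice, a log2 fold change of -1.44 ± 0.18 (edgeR's adjusted p = 0.00690). mt-Co2 had 43.6, 58.6 and 71.9 CPM in ND-fed and 23.5, 24.2 and 26.3 CPM in HFD-fed mice, a log2 fold change of -1.23 ± 0.19 (edgeR's adjusted p = 0.0101). The HFD libraries of mt-Co2 were almost level, and its ND libraries were not. mt-Co1, which binds the heme and copper where oxygen is reduced, had the most counts of the 37 genes and passed DESeq2's test but not edgeR's. It had 14581, 18993 and 13792 CPM in ND-fed and 7348, 10274.5 and 7222 CPM in HFD-fed mice, a log2 fold change of -0.93 ± 0.29 (adjusted p = 0.0698 by edgeR and 0.00028 by DESeq2).

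Complex V makes ATP from the proton gradient, and mt-Atp6 and mt-Atp8 encode parts of its membrane portion. mt-Atp6 had 25.5, 32.0 and 31.6 CPM in ND-fed and 10.3, 14.1 and 11.96 CPM in HFD-fed mice, a log2 fold change of -1.30 ± 0.17 (edgeR's adjusted p = 0.00724). mt-Atp8 had 20, 14 and 11 counts in ND-fed and 8, 6 and 3 in HFD-fed mice. Its log2 fold change of -1.31 ± 0.50 did not pass the test (edgeR's adjusted p = 0.113). As mt-Atp8 had enough counts only in the ND libraries, a negative value was favoured, and it adds nothing to that of mt-Atp6. The annotated mt-Atp8 and mt-Atp6 share 43 bases, so some of their reads cannot be assigned to one gene.

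**Figure D2:**
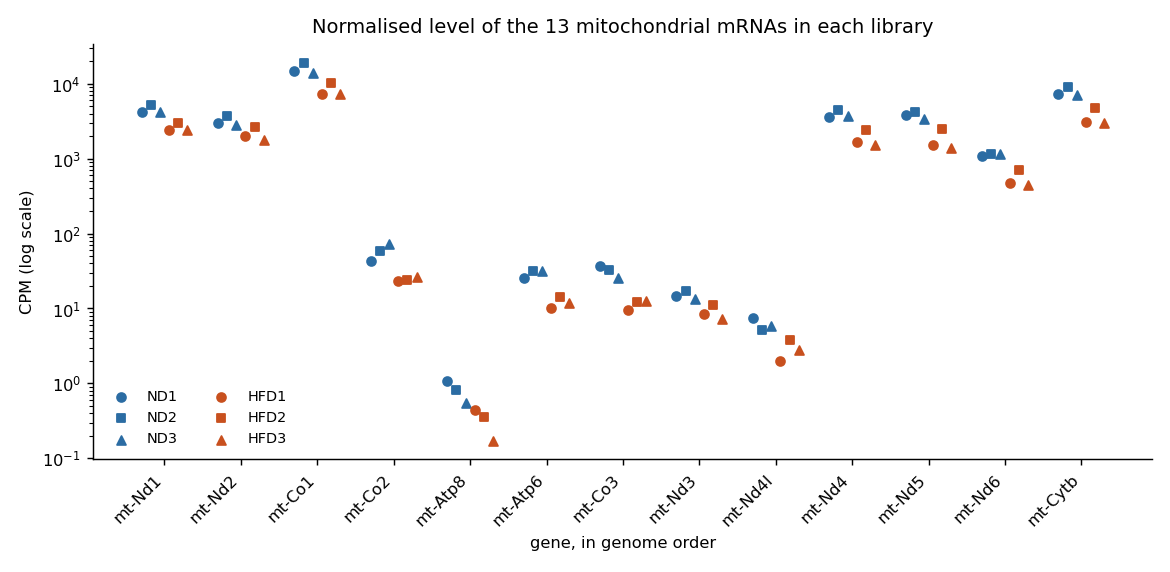
CPM of the 13 mitochondrial mRNAs in each of the 6 libraries, in the order of the genes on the genome, on a log axis, with blue symbols for ND and orange for HFD. HFD symbols are under all ND symbols in 13 of 13 genes, and the 6 genes from mt-Co2 to mt-Nd4l are far lower than the other 7.

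The rRNAs are the core of the mitochondrial ribosome. mt-Rnr1, the rRNA of the small subunit, had 249, 236 and 298 CPM in ND-fed and 248, 307 and 226 CPM in HFD-fed mice. The groups overlapped widely, with a log2 fold change of -0.01 ± 0.17 (edgeR's adjusted p = 0.983). mt-Rnr2, the rRNA of the large subunit, had 235, 208 and 266 CPM in ND-fed and 298, 411 and 299.5 CPM in HFD-fed mice. All HFD values were above all ND values, but the log2 fold change of 0.51 ± 0.18 did not pass the test (edgeR's adjusted p = 0.0996, DESeq2's 0.0565). Per length, mt-Rnr1 and mt-Rnr2 had mean FPKM of 278 and 152 on ND, under the 2126 to 10392 of the 7 abundant mRNAs. Whether the RNA was selected by poly(A) tails or depleted of rRNA was not given in the sources used here.

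Most tRNAs were barely counted. The annotated tRNA genes are short, and 7 of the 22 (mt-Tf, mt-Tv, mt-Ti, mt-Ts1, mt-Td, mt-Tk and mt-Tt) had 0 counts in every library, which allows a level of up to 0.150 to 0.1803 CPM for counting error alone. Another 8 had at most 24 counts in a library and were not tested. mt-Tp, the proline tRNA at the end of the gene order, was the exception. It had 132, 126 and 129 CPM in ND-fed and 60.8, 82.0 and 56.3 CPM in HFD-fed mice, a log2 fold change of -0.96 ± 0.16 (edgeR's adjusted p = 0.0120). The ND libraries were nearly the same and all HFD libraries were lower. The mt-Tp gene is on the minus strand, and strand use in the counting was not given, so reads of either strand cannot be told apart. mt-Tl2, a leucine tRNA, had 3.18, 4.28 and 3.94 CPM in ND-fed and 1.53, 2.34 and 1.72 CPM in HFD-fed mice, -1.03 ± 0.30 on the log2 scale (adjusted p = 0.0574 by edgeR and 0.0284 by DESeq2).

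Of the 7 tRNA genes tested, 4 had positive fold changes, and all 4 are on the minus strand. mt-Ty, the tyrosine tRNA, had 0.593, 1.33 and 0.898 CPM in ND-fed and 2.95, 4.57 and 1.38 CPM in HFD-fed mice. The lowest HFD library was barely above the highest ND library, and the log2 fold change of 1.65 ± 0.52 passed DESeq2's test (adjusted p = 0.0348) and not edgeR's (adjusted p = 0.0718). mt-Te, the glutamate tRNA, had 7, 2 and 26 counts in ND-fed and 32, 61 and 19 in HFD-fed mice, and the groups overlapped (log2 fold change 1.82 ± 0.80, edgeR's adjusted p = 0.158). It had enough counts mostly through the HFD libraries. mt-Tn and mt-Tc, for asparagine and cysteine, had log2 fold changes of 0.48 ± 0.26 and 0.46 ± 0.33, both with overlap and edgeR's adjusted p of 0.239 and 0.363. mt-Th, for histidine, had 2 to 20 counts and overlapped (-0.43 ± 0.73, edgeR's adjusted p = 0.715). mt-Tn, mt-Tc and mt-Ty lie opposite the precursor that leads from mt-Nd2 to mt-Co1, and reads of either strand cannot be told apart here.

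**Figure D3:**
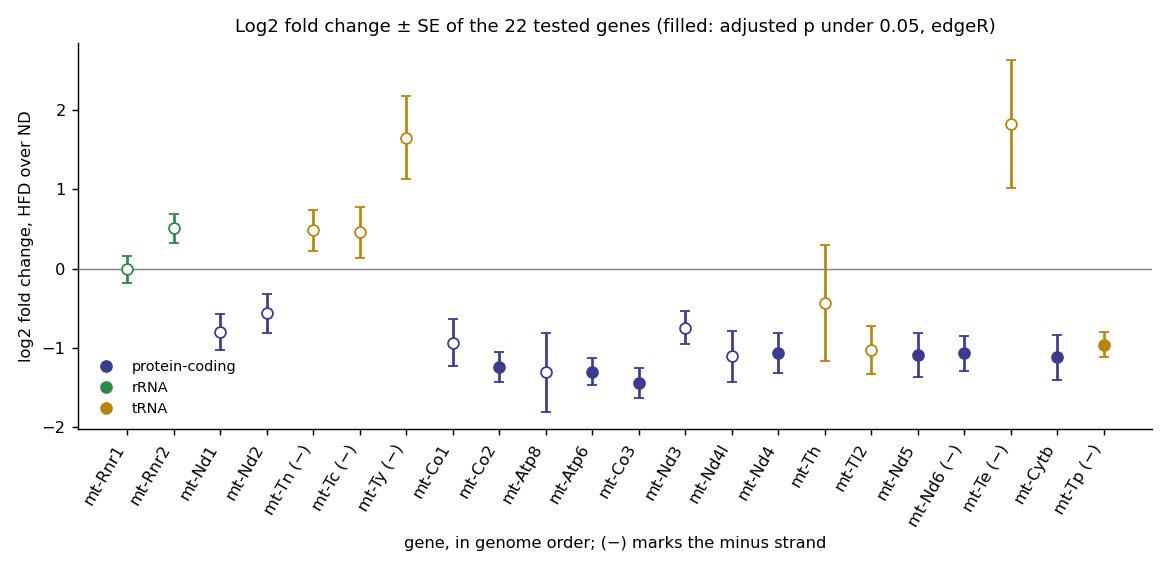
Log2 fold change of HFD over ND with its SE for the 22 tested genes in genome order, coloured by class, filled where edgeR's adjusted p was under 0.05. The mRNAs are all below 0, from -1.44 to -0.56, mt-Rnr1 is at -0.01, and 4 minus-strand tRNAs are above 0.

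The mRNAs fell into 2 sets by their level per length. The 7 mRNAs mt-Nd1, mt-Nd2, mt-Co1, mt-Nd4, mt-Nd5, mt-Nd6 and mt-Cytb had mean FPKM of 2126 to 10392 on ND. The 6 mRNAs from mt-Co2 to mt-Nd4l, which lie next to each other, had 4.05 to 86.2. These 6 genes are all within the part of the genome that chromosome 1 carries as a nearly unbroken copy, at chr1:24611535-24616197 on the minus strand, matching chrM:6390-11042. The annotation splits this copy into 7 genes, Gm29216, Gm28661, Gm10925, Gm28437, Gm28438, Gm10222 and Gm28439, of which 5 lie on one exact line with the mitochondrial genome and the other 2 are off it by 1 base. The ends of the copy fall inside mt-Co1 and mt-Nd4, of which it covers 31.3% and 63.6%.

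The copies were near identical to the genes. Gm28661, Gm10925, Gm28437, Gm10222 and Gm28439 were 100% identical over 681, 678, 783, 294 and 876 aligned bases to mt-Co2, mt-Atp6, mt-Co3, mt-Nd4l and mt-Nd4, while Gm29216 and Gm28438 each had 1 mismatch. The counts of the copies were compared with those of the genes, of which mt-Atp8 had no annotated copy. Gm10925 had 1.09 to 1.55 counts for each count of mt-Atp6 across the libraries, Gm28437 0.542 to 1.03 for each of mt-Co3, Gm28661 0.486 to 0.744 for each of mt-Co2, Gm10222 0.449 to 1.31 for each of mt-Nd4l and Gm28438 0.122 to 0.260 for each of mt-Nd3. For the edge genes the ratio was small, from 0.000866 to 0.00144 for Gm29216 against mt-Co1. It was taken to the counts of the whole gene, of which the copy covers 31.3% in mt-Co1 and 63.6% in mt-Nd4. It therefore does not describe the covered part alone. How reads that match several places were counted was not given in the sources used here, so reads of these genes and of their copies cannot be told apart, and their levels are uncertain.

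Most chromosome 1 copies were lower on HFD as well. Gm10925 had 36.0, 45.6 and 36.0 CPM in ND-fed and 15.9, 15.4 and 18.2 CPM in HFD-fed mice, a log2 fold change of -1.25 ± 0.15 (edgeR's adjusted p = 0.00624). The groups were far apart, and the HFD libraries were close to each other. All 7 chromosome 1 copies had HFD values under all ND values and log2 fold changes of -1.25 to -1.01, and 5 of them were called lower. Over all genes tested, 19.1% had HFD values under all ND values and 6.04% were called lower. Adding the counts of each copy to its mitochondrial gene before the fit gave log2 fold changes of -1.18 for mt-Co2, -1.27 for mt-Atp6 and -1.29 for mt-Co3. With these sums 10 of the 37 genes were lower, against 6.02% of all genes, since mt-Nd3 (-0.80, edgeR's adjusted p = 0.0368) and mt-Nd4l (-1.07, 0.0297) then passed. Of 16 annotated copies in all, 9 had enough counts and 6 were lower, or 3 without the first HFD library, where 0.58% of all genes were called lower. The copies on chromosome 2 were less alike. Gm13340, 97.6% identical to mt-Co1, had 80, 100 and 72 counts in ND-fed and 37, 38 and 31 in HFD-fed mice, a log2 fold change of -1.17 ± 0.30 (edgeR's adjusted p = 0.0389), with no overlap.

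The libraries also ranked differently in the 2 sets of mRNAs. The second HFD library was the highest of its group, and the second ND library of its own, in 7 of the 7 abundant mRNAs. In the 6 mRNAs within the copied stretch the second HFD library was the highest in 3 and the second ND library in 2. Counts were low in some of these 6, at 3 to 20 for mt-Atp8 and 36 to 140 for mt-Nd4l. The difference in ranks was not tested.

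**Figure D4:**
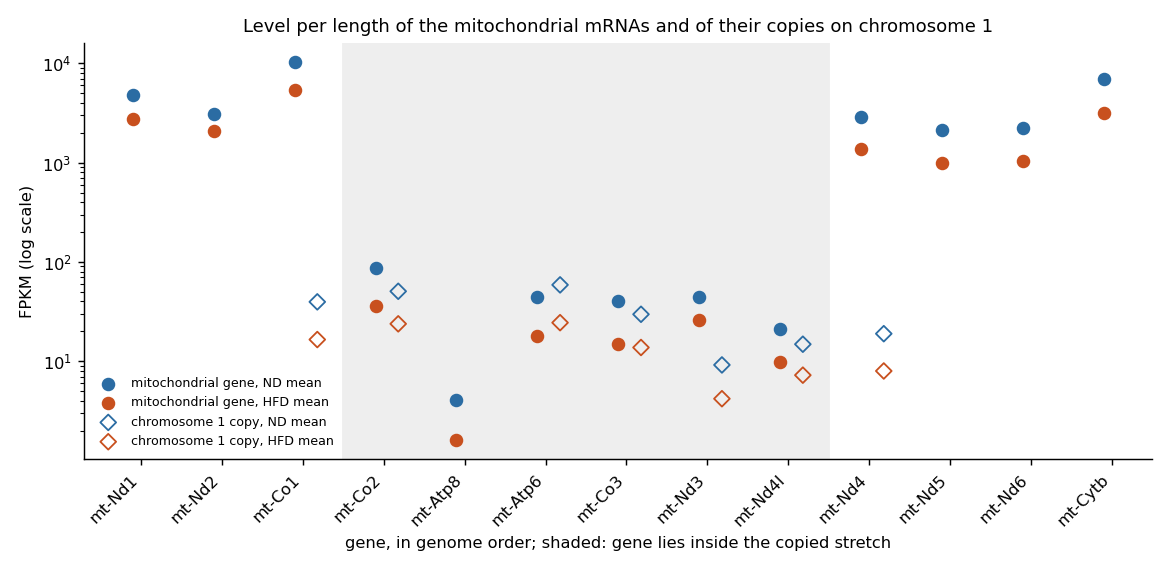
Mean FPKM (log axis) of the 13 mitochondrial mRNAs in genome order, as filled circles, and of their copies on chromosome 1, as open diamonds, for ND (blue) and HFD (orange). The shaded genes lie inside the copied stretch and have 4.05 to 86.2 FPKM on ND, where the copies have 9.19 to 58.8, while the other 7 have 2126 to 10392 on ND.

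Ratios within a library, which need no scaling between libraries, were computed for 4 pairs chosen after the values were seen. mt-Cytb, near the end of the gene order, had 1.70, 1.75 and 1.71 counts for each mt-Nd1 count on ND and 1.25, 1.58 and 1.25 on HFD. The mean ratio was 1.72 ± 0.0244 on ND and 1.36 ± 0.188 on HFD (n = 3 each), and the groups did not overlap (exact permutation p = 0.1, 0.133 adjusted over the 4 ratios). mt-Rnr2 had 0.0552, 0.0398 and 0.0641 counts for each mt-Nd1 count on ND and 0.122, 0.137 and 0.124 on HFD, so the mean ratio was 2.41 times as high on HFD (exact permutation p = 0.1, 0.133 adjusted, n = 3). The ratio of mt-Tp to mt-Nd6, both on the minus strand, was 0.114 ± 0.00700 on ND and 0.124 ± 0.00659 on HFD, and the groups overlapped (exact permutation p = 0.2, n = 3). Reads of either strand cannot be told apart in this pair.

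Some nuclear subunits of the same complexes were lower as well. Of 70 nuclear subunits of complexes I, III, IV and V, 25 were lower and 0 higher on HFD by edgeR, with 0 higher at an unadjusted p under 0.05 or by DESeq2. A negative log2 fold change was found in 69 of them, and the median was -0.50. The share of all genes called lower was 6.04%. In complex I, 16 of 36 were lower (median -0.56), among them Ndufa12, with 34.9, 42.2 and 44.4 CPM in ND-fed and 18.8, 24.8 and 18.5 CPM in HFD-fed mice (log2 fold change -0.97 ± 0.16, edgeR's adjusted p = 0.0126). In complex III, 4 of 9 were lower (median -0.56), with Uqcrc2 at 227, 268 and 188 CPM in ND-fed and 103, 124 and 109.8 CPM in HFD-fed mice (-1.02 ± 0.17, edgeR's adjusted p = 0.0115). Neither gene had overlapping groups, and both encode structural subunits.

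In complex IV 2 of 10 nuclear subunits were lower, Cox6c and Cox5b (median -0.47). In complex V 3 of 15 were lower (median -0.40), of which Atp5c1, the central shaft of the enzyme, had 417, 497 and 370 CPM in ND-fed and 197, 232 and 206 CPM in HFD-fed mice (-1.02 ± 0.16, edgeR's adjusted p = 0.0115). Complex II, which has no mitochondrial subunit, had 2 of 4 lower, Sdha and Sdhb (median -0.62). The 13 mitochondrial mRNAs together had 2.65, 2.67 and 2.62 counts for each count of the 70 nuclear subunits on ND and 1.91, 2.24 and 1.84 on HFD, 2.65 ± 0.0273 and 1.995 ± 0.218. The ND libraries were almost level and all HFD libraries were lower (exact permutation p = 0.1, 0.133 adjusted, n = 3). Leaving out 1 library took the count in complex I from 16 to 3 without the first ND library, 1 without the second, 8 without the third, 0 without the first HFD library and 25 without the second. In each of complexes II to V the count was 0 or 1 without the first ND, the second ND or the first HFD library.

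**Figure D5:**
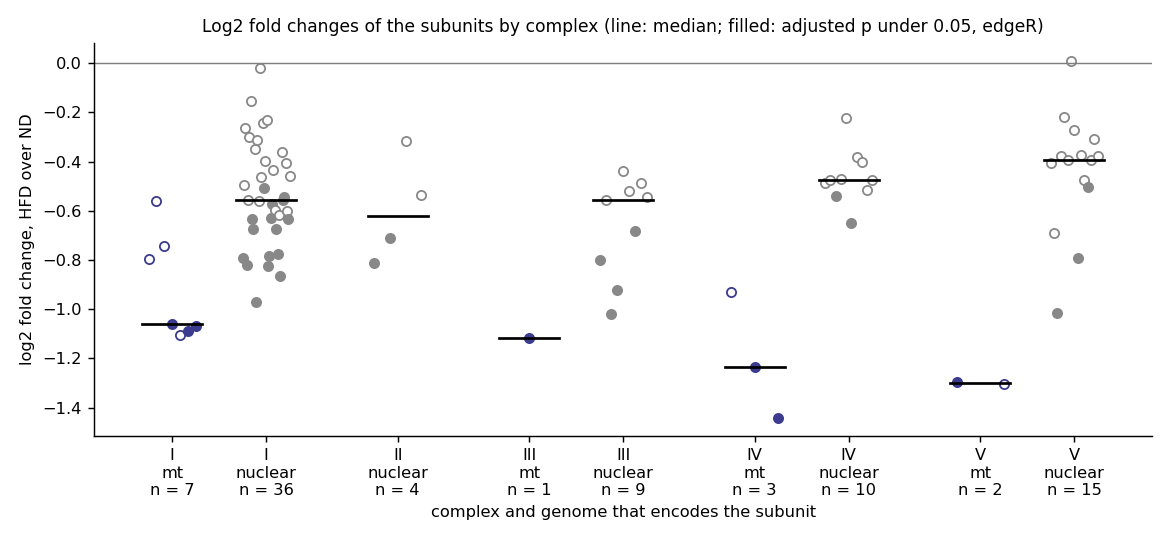
Log2 fold changes of HFD over ND for mitochondrial (mt, blue) and nuclear (grey) subunits of each complex, with the median as a line and filled symbols where edgeR's adjusted p was under 0.05. The medians of the mitochondrial subunits (-1.30 to -1.06) are below those of the nuclear ones (-0.62 to -0.40), and complex II has nuclear subunits only. The complex V median of -1.30 includes mt-Atp8, which had enough counts only in the ND libraries.

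The genes that copy, transcribe and process mitochondrial DNA are nuclear, and their counts are to be read against the 6.04% of all genes tested that were called lower. Among 9 transcription genes 1 was lower, Tfam, which packages the DNA and starts transcription. Tfam had 35.1, 36.99 and 36.3 CPM in ND-fed and 24.6, 23.98 and 27.6 CPM in HFD-fed mice, with no overlap (log2 fold change -0.51 ± 0.11, edgeR's adjusted p = 0.0249). Polrmt, the mitochondrial RNA polymerase, had 18.4 to 21.4 CPM in ND-fed and 21.9 to 23.1 CPM in HFD-fed mice (0.17 ± 0.12, edgeR's adjusted p = 0.369). Tfb2m, which opens the promoter, and Tefm, the elongation factor, had log2 fold changes of -0.15 ± 0.15 and -0.23 ± 0.22, with overlapping groups (edgeR's adjusted p = 0.542 and 0.495). Of 16 replication and maintenance genes, 0 were called by edgeR or limma-voom and 1, higher, by DESeq2, with 2 at an unadjusted p under 0.05.

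Among 20 genes of RNA processing, stability and decay 1 was lower, Hsd17b10, a subunit of the mitochondrial RNase P that also acts in isoleucine breakdown. Hsd17b10 had 129, 145 and 121 CPM in ND-fed and 56.1, 72.4 and 48.1 CPM in HFD-fed mice (-1.16 ± 0.17, edgeR's adjusted p = 0.00958), and the groups were far apart. Lrpprc and Slirp, which bind and stabilise mitochondrial mRNAs, had log2 fold changes of -0.04 ± 0.12 and -0.11 ± 0.43 (edgeR's adjusted p = 0.863 and 0.886), both with overlap. The exons of Slirp overlap those of Alkbh1 and Snw1, so its 1.55 to 3.49 CPM are uncertain.

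Against 6.04% of all genes tested, 1 of 20 genes that modify mitochondrial rRNA and tRNA was lower, Trmu. Of 17 mitochondrial aminoacyl-tRNA synthetases 2 were lower, Vars2 and Iars2, for valine and isoleucine. In both lists 0 were lower without any one of the ND libraries or without the first HFD library. All 17 synthetases had negative log2 fold changes (median -0.27). Of 11 translation factors, 0 were called by edgeR, DESeq2 or limma-voom, with 4 at an unadjusted p under 0.05. Among 9 nuclear regulators of mitochondrial genes, Ppargc1a, the coactivator that drives mitochondrial biogenesis, was lower, with 7.97, 8.92 and 10.2 CPM in ND-fed and 1.7998, 3.01 and 1.21 CPM in HFD-fed mice (-2.17 ± 0.35, edgeR's adjusted p = 0.0114). Perm1, a regulator best known from muscle, was higher, with 0.431, 0.810 and 0.798 CPM in ND-fed and 6.82, 4.51 and 16.3 CPM in HFD-fed mice (3.74 ± 0.57, edgeR's adjusted p = 0.0103). Neither gene had overlapping groups. Of the 9 regulators, 3 had negative log2 fold changes, and the median was 0.08. Of 13 proteins often used as measures of mitochondrial mass 1 was lower, Cs, the citrate synthase, at 490.2, 690.01 and 409 CPM in ND-fed and 274, 326 and 273 CPM in HFD-fed mice (-0.86 ± 0.22, edgeR's adjusted p = 0.0399). These calls also leaned on single libraries. Tfam was not called without any one of the ND libraries or without the first HFD library, Hsd17b10 without the first HFD library, and Ppargc1a without the second ND or the first HFD library. Perm1 was not called without the first or the second ND library, and Cs without the first or the second ND library or the first or the third HFD library.

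Markers of the cell types of the fat moved with diet at the same time. Adipocyte markers summed to 53985, 60763 and 47487 CPM over 15 genes in ND-fed and 32928, 45685 and 22937.5 CPM in HFD-fed mice, and 4 were lower (Cfd, Retn, Adrb3 and Slc2a4) and 1 higher (Lep, named after its values were seen). A large part of the difference between the sums lay in Cfd. Cfd alone had 13470, 15606 and 11746 CPM in ND-fed and 1158, 2499 and 162 CPM in HFD-fed mice. The log2 fold change was negative in 12 of the 15 adipocyte markers, with a median of -0.52. Macrophage markers summed to 2295, 2169 and 2173 CPM over 15 genes in ND-fed and 7033, 5439.7 and 11977 CPM in HFD-fed mice, and 11 were higher and 0 lower. Over all genes tested, 6.04% were called lower and 9.85% higher. The second HFD library, with the highest mitochondrial share of its group, had the highest adipocyte and the lowest macrophage sum, and the third HFD library had the reverse on all 3 measures. Adipoq, which encodes an adipocyte hormone, and the other markers of both lists had counts in every library.

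Skeletal muscle markers, 8 genes, summed to 24.1, 67.8 and 33.0 CPM in ND-fed and 4.85, 8.06 and 5.29 CPM in HFD-fed mice. Most of each sum was Acta1, at 22.04, 65.3 and 30.2 CPM in ND-fed and 3.16, 5.71 and 3.79 CPM in HFD-fed mice. Only 3 of the 8 genes had enough counts to be tested, of which Acta1 was called lower. Ckm and Myh4 were at 0 in every library. Brown fat markers summed to 19.0 to 39.7 CPM in ND-fed and 29.1 to 32.2 CPM in HFD-fed mice over 10 genes, with Zic1 at 0. Only 6 of the 10 were tested, of which edgeR called Otop1 higher and 0 lower. The log2 fold change was negative in 2 of the 6, down to -1.21, with 1 of these at edgeR's unadjusted p under 0.05. DESeq2 called 1 brown fat marker lower and 2 higher. Of the endothelial (10 tested), progenitor (9), mesothelial (8), T and B cell (10) and red blood cell (5) markers, 0 were called by edgeR, with 2 endothelial markers and no other at an unadjusted p under 0.05, and DESeq2 called 1 endothelial marker lower. The part of any of these cell types in the lower mitochondrial RNA was not tested. Without the second HFD library 7 adipocyte markers were lower and 13 macrophage markers higher, and without the first ND, the second ND or the first HFD library these counts were 0 and 5. They were 0 and 7 without the third ND library.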

How the data were processed

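RNA-Seq of whole epididymal fat, 3 samples for each diet, was analysed, with diet and replicate number taken from the sample labels. The study's methods name TopHat and Cufflinks with build GRCm38, while the submitters' processing notes name HISAT2 2.0.5, featureCounts 1.5.0-p3, CASAVA 1.8, fastp and DESeq2 1.20.0 with the human builds GRCh38 and hg38. The identifiers are mouse, and 54495 of 54532 were found in GENCODE release M21 on GRCm38. The count table that the authors deposited was not normalized. The FPKM table that the authors deposited equals the counts divided by a length and a library factor (checked on the 11492 genes above 50 counts in all libraries).

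Genes were tested with edgeR's quasi-likelihood method (edgeR 4.0.16 in R 4.3.3, robust=TRUE, TMM, filterByExpr, diet as the only factor) with Benjamini-Hochberg adjustment over all 15751 genes tested and a threshold of 0.05. SE values were derived from the F statistic. Shares and ratios were compared by two-sided exact permutation tests, whose smallest p is 0.1. The labels do not say that samples came from separate cages or extractions, so p-values measure the spread between these samples. The lowest chi-square per gene between libraries was 19.0, so no pair of libraries agreed within sampling noise. Copies were found by BLAST (blastn 2.17.0, at least 90% identity over at least 100 bases).

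Alternatives tried were limma-voom (limma 3.58.1), DESeq2 1.42.0, its size factors in edgeR, count totals only, scaling without the mitochondrial genes, no filter, a minimum of 10 counts in 3 libraries or more, robust=FALSE, a replicate block, copies added, limma on log2(FPKM + 1) or log2(FPKM + 0.1) where 3 libraries or more reached an FPKM of 0.5, the former also without the filter, and each library left out. The within-library ratios, the tRNA share without mt-Tp and the marker counts without a library were added after seeing the data. The 37 genes, the gene lists and the tests were chosen with earlier results of these data known. The genes named are the 37, their nuclear copies, Polrmt, Tfam, Tfb2m, Tefm, Lrpprc, Slirp, Ppargc1a and at most 4 called genes of each list with the largest log2 fold change. Adipoq, Lep, Ckm, Myh4, Zic1, Alkbh1 and Snw1 were named outside this rule, after their values were seen. In data simulated for this comparison over 15751 genes, 54 of 103 genes changed by a log2 of 1 and 93 of 97 changed by a log2 of 2 were recovered, with 15 false calls in 162. The changed genes were drawn from the well counted ones and were far fewer than the 2503 called in the data. The recovery therefore does not describe genes with low counts or the calls made here.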

Additional observations from a re-analysis of the deposited data

How the results depend on the processing

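Over 19 other settings, 350 of 418 recomputed log2 fold changes of the mitochondrial genes kept their direction and their side of the threshold, 30 no longer passed, 34 newly passed and 4 changed sign, of mt-Rnr1 and mt-Th, on leaving out 1 library. mt-Rnr1 ran from -0.14 to 0.071 (positive without the third ND library or the third HFD library), and mt-Th from -0.89 to 0.032 (positive without the third ND library or the second HFD library). Of the nuclear genes named, Lrpprc ran from -0.13 to 0.040 and Slirp from -0.58 to 0.22. DESeq2's Wald test called 15 mitochondrial genes in place of 8 and 56 genes of the 13 nuclear lists of mitochondrial function in place of 35, limma on log2(FPKM + 1) called 13 mitochondrial genes, and limma on log2(FPKM + 0.1) called 23 genes of the nuclear lists. Without a filter, limma on log2(FPKM + 1) called 50 genes in all, 0 mitochondrial (16 at an unadjusted p under 0.05) and 0 of the nuclear lists (80), over 54532 genes. The cause was not tested. Leaving out 1 library gave 474 to 3940 genes in all in place of 2503, 2 to 13 mitochondrial genes, 1 to 55 genes of the nuclear lists, and a difference in the mitochondrial share of -2.18 to -1.75 percentage points. The other settings kept these counts within 1.5 times.

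The ND and HFD samples came from different mice. The sources used here do not say whether the replicate number pairs them, so it was left out of the main test. With the replicate block 9 mitochondrial genes were called, of which 8 were those of the test without it, and 1886 genes in all. Of the 22 tRNA genes 15 had too few counts to be tested, for which the cause was not tested. The levels of the 6 mRNAs from mt-Co2 to mt-Nd4l are uncertain, since these genes lie within the stretch copied on chromosome 1. Among them, mt-Atp8 had no annotated copy. The cause of the low counts of these mRNAs was not tested. Counts from the parts of mt-Co1 and mt-Nd4 that the copy covers are uncertain as well.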
